A study of Homo sapiens with 24 samples.

Results

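The p53-family target genes are genes that p53, and in many cells its relatives p63 and p73, bind and switch on. The set described here was a named list of 39 such genes, and a member was kept when its counts summed to at least 10 over the 24 libraries, which left 34 of 28278 genes in the table. The minimum of counts itself compares no groups. The 5 listed genes that were not kept were TP53I3 and TP53INP1, both with 0 counts, PHLDA3 with 6, SPATA18 with 7 and SERPINB5 with 7. TP53I3 and TP53INP1 lie wholly, 100% of their span, inside the annotated spans of FAM228B and NDUFAF6, and fragments that overlap 2 genes were counted for neither, so their 0 is not a measured level. Just inside the minimum were EDA2R, the receptor for the A2 form of ectodysplasin, with 10 counts, and IGFBP3, a secreted carrier of insulin-like growth factors, with 95 counts.

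The libraries came from TYUC-1, a human esophageal neuroendocrine carcinoma line in suspension culture, engineered to express either TAp63 or ΔNp63 when doxycycline (1 µg/ml) is added. Induction lasted 0, 1, 3 or 6 days of a course of 6 days, with DMSO for the remaining days, and each of the 8 groups (2 lines by 4 time points) had 3 libraries labelled as biological replicates. The uninduced cells of each line, on DMSO throughout, were its control. Every sample also carries a treatment label for EPZ-6438, which blocks EZH2 (the enzyme that methylates histone H3 in Polycomb silencing), over the same days as doxycycline, while the titles name p63 induction alone, so induction and the inhibitor, if it was given, cannot be told apart. Whether an engineered line is 1 clone, and how its replicate cultures were separated, is not given in the sources used here, so the tests speak of the spread among these libraries, which may be technical.

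The proteins p53, p63 and p73 share a DNA-binding domain and recognise the same paired half-site in DNA. TAp63 has an N-terminal activation domain like that of p53, whereas ΔNp63, the form made in basal cells of squamous epithelia such as the esophagus, starts further downstream and lacks it. ΔNp63 can occupy p53 sites and keep genes such as CDKN1A low, and it also activates genes of its own. The question put to the data was whether TAp63 raises the shared target genes more than ΔNp63 does.

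Totals ran from 6375963 to 22019974 counts in 23 libraries and came to 1530847 in replicate 3 of ΔNp63 day 1, which stood apart. Its 16 erythroid and fetal globin genes summed to 4366 CPM (counts scaled to library size), against 7.35 to 97.6 in the other 23 libraries, and it held 16 of the 32 tested p53-family targets above every other library and 8 below every other one. GADD45A stood at 129 CPM there, against 13.2 to 29.7 elsewhere, CCNG1 at 269 against 35.0 to 80.9, and PLK2 at 0. The same summed erythroid level was 51.1 to 97.6 CPM in the 8 libraries numbered 1, 9.85 to 27.8 in those numbered 2 and 7.35 to 12.1 in the other 7 numbered 3, in both lines. Libraries with the same number also deviated together across genes, so the numbers were taken to pair the samples. Results are therefore given from 2 edgeR fits: one with all 24 libraries and no pairing, and one, called the paired fit, with the replicate number as a block and without that library. Of the neuroendocrine markers reported here, CHGA and INSM1 stayed at or below 1.11 and 0.779 CPM outside that library, and the tuft cell factor POU2F3 was present at 123 to 244 CPM. Markers of other cell types moved with induction. The summed tuft level was 683 to 727 CPM at TAp63 day 0, 476 to 583 CPM at day 1, 578 to 650 CPM at day 3 and 601 to 649 CPM at day 6. In the ΔNp63 line it was 655 to 693 CPM at day 0, 435 to 510 CPM at day 3 and 505 to 574 CPM at day 6. At ΔNp63 day 1 it was 252 to 486 CPM, with the library that stood apart included. POU2F3 fell in the paired fit at days 1, 3 and 6 of both lines, by 0.26 to 0.52 on the log2 scale, and AVIL and GFI1B fell at ΔNp63 day 3 with all libraries, by 1.22 and 0.67 (edgeR, adjusted p = 0.0184 and 0.0141). ASCL2, of the same tuft list, went the other way: the paired fit called it higher at ΔNp63 day 6, by 0.28 (edgeR, adjusted p = 0.0484). The summed squamous level was 7.78 to 13.4 CPM at day 0, 19.9 to 30.5 CPM at TAp63 day 6 and 86.7 to 136 CPM at ΔNp63 day 6. Most of it was KRT13, at 6.93 to 110 CPM outside the library that stood apart, with KRT5 at 0.128 to 26.3 CPM. KRT14, KRT6A and DSG3 stayed there at or below 0.257, 0.0935 and 0.214 CPM. In the paired fit KRT13 was called higher in both lines at days 3 and 6, and KRT5 under ΔNp63 alone. The summed fibroblast level was 11.3 to 20.3 CPM at TAp63 day 0 and 21.7 to 27.7 CPM at day 3, and 14.3 to 20.1 CPM at ΔNp63 day 0 and 22.9 to 34.0 CPM at day 3. Most of this sum was COL1A1, at 10.72 to 31.97 CPM outside the library that stood apart. COL1A2, DCN and LUM stayed there at or below 0.234, 0.154 and 0.154 CPM. COL1A1 rose in the paired fit in both lines, by 0.67 under TAp63 and 0.72 under ΔNp63 at day 3 (edgeR, adjusted p = 0.00111 and 5.56e-05). COL3A1 was called higher at ΔNp63 days 3 and 6 with all libraries (edgeR, adjusted p = 0.0169 and 0.0126). Its level was near the floor, at or below 1.56 CPM, with 0 counts in 8 libraries. Immune genes summed to 158 CPM in the library that stood apart and to 21.9 to 35.3 CPM in the others. PTPRC stood at 89.1 CPM in it, against 0.79 to 5.28 elsewhere, and CD68 at 61.2 against 4.98 to 10.8. CD14 was lower in it, at 6.65 CPM against 11.3 to 20.6. The part of these markers in the results was not tested. In bulk RNA, fewer cells of a type and less RNA per cell cannot be told apart.

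**Figure D1:**
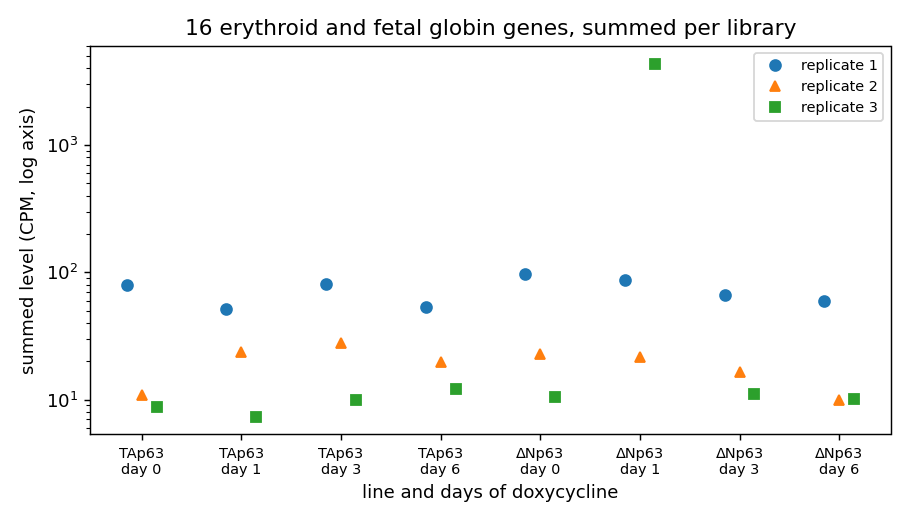
Summed level in CPM (log axis) of 16 erythroid and fetal globin genes, 1 point per library, by line and day. Replicate 3 of ΔNp63 day 1 stands at 4366 CPM and the other 23 libraries lie at or below 97.6 CPM, with replicate 1 highest in the other 7 groups.

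TP63 itself, the induced gene, was measured first. Levels of TP63 in the TAp63 line were 2.93, 2.901 and 2.97 CPM at day 0, 371, 416 and 326 at day 1, 452, 597 and 625 at day 3, and lastly 611, 692 and 663 at day 6. TP63 in the ΔNp63 line stood at 4.94, 3.98 and 4.14 CPM at day 0, 721, 576 and 69.2 at day 1, 1026, 768 and 802 at day 3, and lastly 1033, 836 and 908 at day 6. Induction was thus present in all 18 libraries with doxycycline, weakest in the replicate that stood apart, and at days 3 and 6 every ΔNp63 library held more TP63 than every TAp63 library. With all libraries TP63 was 190-fold (day 3) and 223-fold (day 6) above day 0 in the TAp63 line and 200-fold and 213-fold in the ΔNp63 line (edgeR, adjusted p = 1.32e-07, 7.12e-08, 1.35e-07 and 5.24e-08). The 2 isoforms are summed in this count, so it does not show which one a library expresses, and the part of the unequal TP63 level in the comparisons between the lines was not tested.

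Promoter sequences are shown for 6 targets, to show where a p53 half-site lies near their start and where none does. DDB2 was called in no comparison and is shown for its full site, and the others were called in the paired fit described below. RefSeq windows of 300 bases, from 250 before to 50 after a transcript start (GRCh38.p14, the assembly of hg38), matched 32 of the 39 listed genes, with 48 windows. Capitals mark matches to the p53-family half-site, a degenerate 10-letter consensus searched on both strands; overlapping matches would be written as 1 run. A half-site was present in 7 of the 48 windows (14.6%), those of AEN, DDB2, FAS, FDXR, PLK2, RPS27L and SESN1, and in 6.63% of all 35116 windows. A full site, 2 half-sites at most 13 bases apart, was present in the DDB2 window and in 0.0285% of all windows. The windows of CD82 and BBC3, and that of CDKN1A, which is not shown, hold no half-site, which says only that these letters are not in these 300 bases. In the order shown, the windows are chr5:58460037-58460336 (minus strand), chr11:44565413-44565712 (plus), chr19:47232618-47232917 (minus), chr15:63157428-63157727 (minus), chr15:88621090-88621389 (plus) and chr11:47214724-47215023 (plus).
PLK2: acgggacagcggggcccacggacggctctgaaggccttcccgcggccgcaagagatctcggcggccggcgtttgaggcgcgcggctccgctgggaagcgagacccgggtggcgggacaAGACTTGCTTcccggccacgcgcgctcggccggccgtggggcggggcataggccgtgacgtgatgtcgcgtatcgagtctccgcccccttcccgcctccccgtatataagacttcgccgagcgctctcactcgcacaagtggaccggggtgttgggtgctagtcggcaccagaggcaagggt
CD82: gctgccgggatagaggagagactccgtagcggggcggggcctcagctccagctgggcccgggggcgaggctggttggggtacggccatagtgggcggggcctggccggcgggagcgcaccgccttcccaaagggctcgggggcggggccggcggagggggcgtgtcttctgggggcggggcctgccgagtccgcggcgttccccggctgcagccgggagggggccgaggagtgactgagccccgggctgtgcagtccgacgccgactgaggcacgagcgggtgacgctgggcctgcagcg
BBC3: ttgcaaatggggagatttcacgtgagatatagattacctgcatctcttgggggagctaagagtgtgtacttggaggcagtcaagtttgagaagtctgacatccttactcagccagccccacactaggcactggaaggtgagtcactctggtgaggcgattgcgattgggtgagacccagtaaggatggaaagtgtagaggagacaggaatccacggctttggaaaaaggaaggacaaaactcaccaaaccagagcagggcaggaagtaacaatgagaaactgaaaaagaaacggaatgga
RPS27L: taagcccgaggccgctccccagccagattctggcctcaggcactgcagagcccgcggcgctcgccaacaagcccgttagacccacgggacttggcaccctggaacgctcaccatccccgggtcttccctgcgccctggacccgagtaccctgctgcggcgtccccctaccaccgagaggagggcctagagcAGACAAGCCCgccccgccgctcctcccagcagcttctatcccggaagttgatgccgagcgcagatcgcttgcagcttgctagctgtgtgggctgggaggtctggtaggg
AEN: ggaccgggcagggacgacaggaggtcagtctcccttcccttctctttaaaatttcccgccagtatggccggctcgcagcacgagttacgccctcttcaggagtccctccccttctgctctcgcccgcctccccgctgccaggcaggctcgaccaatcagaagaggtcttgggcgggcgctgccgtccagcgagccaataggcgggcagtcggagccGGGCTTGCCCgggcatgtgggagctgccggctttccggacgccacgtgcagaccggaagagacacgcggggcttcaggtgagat
DDB2: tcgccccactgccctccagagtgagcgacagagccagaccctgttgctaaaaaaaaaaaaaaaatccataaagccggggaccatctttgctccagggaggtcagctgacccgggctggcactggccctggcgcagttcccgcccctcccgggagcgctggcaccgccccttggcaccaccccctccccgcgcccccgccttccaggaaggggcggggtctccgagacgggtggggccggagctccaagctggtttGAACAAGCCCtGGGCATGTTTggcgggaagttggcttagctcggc

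Of the 32 p53-family targets with enough counts to test with all 24 libraries, CD82 alone passed the test, and it did so in the ΔNp63 line at days 3 and 6. No member was called in the TAp63 line at day 1, 3 or 6 with edgeR, where 2, 3 and 2 members had an unadjusted p under 0.05, all of them higher, and DESeq2 called 0, 1 and 1 (CD82). Of all 15642 genes tested, edgeR called 0.121%, 0.435% and 0.441% at those days (0.121%, 0.428% and 0.428% higher and 0%, 0.00639% and 0.0128% lower). In the ΔNp63 line edgeR called 0 of 32 members at day 1, with 6 at an unadjusted p under 0.05 and 2 called by DESeq2 (CD82 and CDKN1A), then 1 at day 3 and 1 at day 6, against 0.0959%, 2.2% and 2.03% of all genes (0.0895%, 1.66% and 1.62% higher and 0.00639%, 0.537% and 0.416% lower). The median log2 change of the 32 members lay close to that of all genes: 0.06, -0.03 and 0.02 at days 1, 3 and 6 in the TAp63 line against 0.00, -0.01 and -0.01 for all genes, and 0.01, -0.07 and -0.08 in the ΔNp63 line against 0.01, -0.01 and -0.01. Before induction 0 of 32 members differed between the lines, with 0 at an unadjusted p under 0.05 and 0 called by DESeq2, beside 0.0128% of all genes.

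Leaving out replicate 3 of ΔNp63 day 1, with no block, edgeR called 0 of 33 members at TAp63 day 1 (2 at an unadjusted p under 0.05), where 0.171% of all genes were called (0.165% higher and 0.00634% lower). CD82 was called higher at TAp63 day 3, beside 0.957% of all genes (0.824% higher and 0.133% lower), and at TAp63 day 6, beside 0.976% (0.893% higher and 0.0824% lower). At ΔNp63 day 1 it called 0 members (5 at an unadjusted p under 0.05) and 0.184% of all genes (0.171% higher and 0.0127% lower). At ΔNp63 day 3 CD82 and PLK2 were higher and BBC3 and PMAIP1 lower, beside 6.34% of all genes (4.35% higher and 1.99% lower). At ΔNp63 day 6 the same 4 genes and FAS, which was lower, were called, beside 4.97% of all genes (3.52% higher and 1.44% lower). Between the lines it called 0 members at days 1, 3 and 6 (0, 2 and 2 at an unadjusted p under 0.05), beside 0.00634%, 0.127% and 0.279% of all genes.

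The paired fit tested 33 members, IGFBP3 being the one added, and called 17 of them in at least 1 comparison. In the TAp63 line 2 of 33 rose at day 1, 3 at day 3 and 2 at day 6, and none fell, against 0.539%, 3.2% and 2.95% of all 15783 genes higher and 0.348%, 1.37% and 0.646% lower. In the ΔNp63 line 1 rose and 1 fell at day 1, beside 0.551% and 0.298% of all genes. At day 3 of ΔNp63, 5 members rose and 9 fell, where 12.2% of all genes rose and 11.3% fell. At day 6 of ΔNp63, 4 members rose and 7 fell, where 8.14% of all genes rose and 5.94% fell. The members called higher were the cell cycle brakes PLK2, CDKN1A and SFN with CD82, POLK and SESN1. Those called lower were 4 genes of mitochondrial apoptosis, 3 death receptors, 3 genes of p53 turnover and feedback, and GADD45A. Members were also counted by whether the 3 libraries of a day lay wholly above or below the 3 of day 0. In the TAp63 line CD82, CDKN1A and PLK3 lay above at day 1, where 3.24% of all genes did, and BCL2L1 and PMAIP1 below, where 2.97% did. BAX, CD82, CDKN1A and PLK2 lay above at TAp63 days 3 and 6, where 7.1% and 6.85% of all genes did. BBC3 and FBXW7 lay below at TAp63 day 3, where 6.18% did, and FBXW7 and PMAIP1 at TAp63 day 6, where 4.66% did. In the ΔNp63 line CD82, CDKN1A and FDXR lay above at day 1, where 3.96% of all genes did, and no member below, where 4.99% did. That count kept replicate 3 of ΔNp63 day 1, the library that stood apart. In replicates 1 and 2 BBC3, PMAIP1 and FAS lay below every day 0 library, and SESN1 above. Replicate 3 went the other way, at 27.3, 28.6, 2.66 and 18.6 CPM. CD82, CDKN1A, PLK2 and SESN1 lay above at ΔNp63 days 3 and 6, where 13.1% and 10% did. BBC3, FBXO22, PMAIP1 and TNFRSF10A lay below at ΔNp63 day 3, where 10.4% did, and BBC3, FAS and PMAIP1 at ΔNp63 day 6, where 7.68% did.

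**Figure D2:**
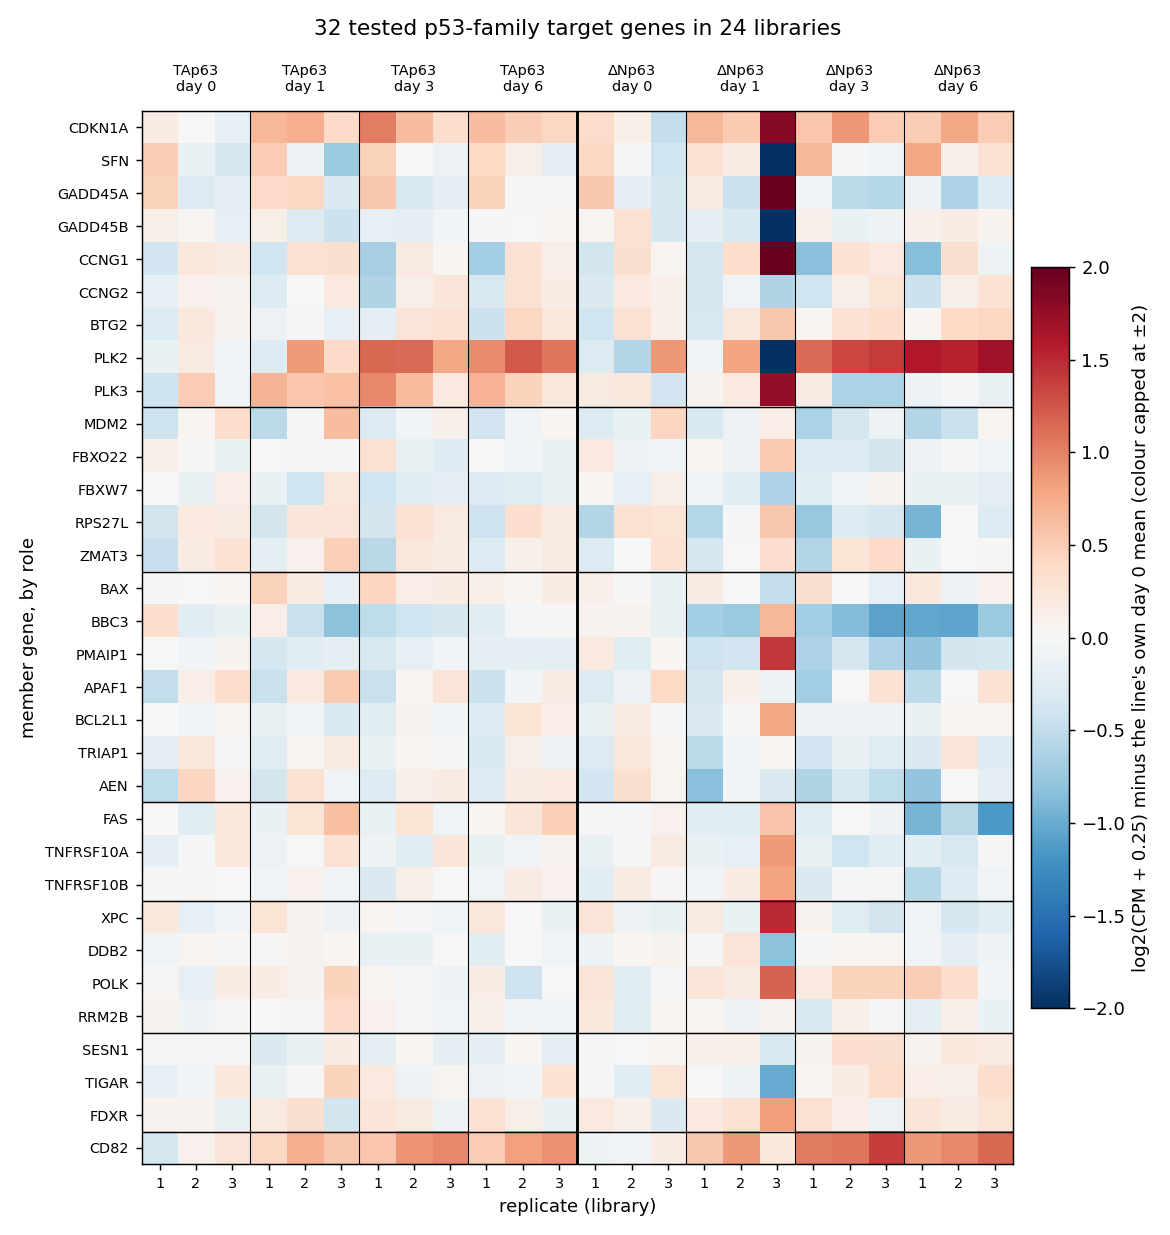
Level of each of the 32 tested members in each of the 24 libraries, as log2(CPM + 0.25) minus the mean of the line's own day 0, with colour capped at ±2; rows are grouped by role and columns by line, day and replicate. CD82 and PLK2 are red in both lines at days 3 and 6, BBC3 is blue in the ΔNp63 line, and replicate 3 of ΔNp63 day 1 stands apart in most rows.

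CD82, a tetraspanin of the cell surface known as a metastasis suppressor, was the one member called with all 24 libraries, and in the paired fit it rose in both lines at every day. The gene spans chr11:44565663-44620358 (hg38, plus strand) and shares no base with another annotated gene. Levels of CD82 in the TAp63 line were 7.395, 10.1 and 11.4 CPM at day 0, 12.7, 15.7 and 13.9 at day 1, 13.97, 17.8 and 18.6 at day 3, and lastly 13.5, 16.9 and 18.1 at day 6. CD82 in the ΔNp63 line stood at 9.06, 9.31 and 10.8 CPM at day 0, 14.2, 17.9 and 11.3 at day 1, 20.2, 20.6 and 25.8 at day 3, and lastly 17.9, 19.2 and 21.8 at day 6. Every library of days 1, 3 and 6 lay above every day 0 library of its line. With all libraries the log2 change under ΔNp63 was 1.19 (SE 0.181) at day 3 and 1.01 (SE 0.182) at day 6 (edgeR, adjusted p = 0.000495 and 0.00276). Under TAp63 it was 0.78 (SE 0.183) and 0.72 (SE 0.182), which did not pass with all libraries (edgeR, adjusted p = 0.072 and 0.122) and did in the paired fit with its replicate block, at 0.79 and 0.72 (edgeR, adjusted p = 1.94e-05 and 6.42e-05). In both lines CD82 had risen by day 1 in the paired fit, by 0.55 under TAp63 and 0.81 under ΔNp63 (edgeR, adjusted p = 0.00845 and 0.000154). Its calls at days 3 and 6 held in both lines whichever further library was left out of the paired fit; at day 1 of TAp63 the call was lost without replicate 2 of either day.

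PLK2, a polo-like kinase of the early cell cycle that p53 induces, had the largest fold change of the members called in the paired fit, at low levels. It spans chr5:58453983-58460139 (minus strand) and overlaps no other gene. Levels of PLK2 in the TAp63 line were 1.39, 1.79 and 1.49 CPM at day 0, 1.25, 2.99 and 2.099 at day 1, 3.73, 3.67 and 2.83 at day 3, and lastly 3.21, 3.94 and 3.52 at day 6. PLK2 in the ΔNp63 line stood at 0.906, 0.681 and 2.297 CPM at day 0, 1.09, 2.17 and 0 at day 1, 2.81, 3.29 and 3.45 at day 3, and lastly 3.97, 3.81 and 4.27 at day 6. All 12 libraries of days 3 and 6 lay above all 6 of day 0, and the replicate at 2.30 CPM was the highest of the uninduced ones. With all libraries the change did not pass the test in either line, the nearest being ΔNp63 day 6 at a log2 change of 1.62 (SE 0.426; edgeR, adjusted p = 0.0514). PLK2 rose in the paired fit at day 3 by 1.16 (SE 0.292) under TAp63 and 1.31 (SE 0.292) under ΔNp63 (edgeR, adjusted p = 0.017 and 0.00173). At day 6 it rose by 1.21 (SE 0.286) and 1.65 (SE 0.301) (edgeR, adjusted p = 0.0128 and 0.000277). The ΔNp63 calls held with each further library left out, with log2 changes of 0.86 to 2.05 at day 3 and 1.19 to 2.37 at day 6, while the TAp63 calls held in 2 of 6 and 3 of 6 such fits. A group held 58 to 160 counts of PLK2 in all.

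CDKN1A, which encodes the cyclin-dependent kinase inhibitor p21, rose in both lines in the paired fit. It spans chr6:36676463-36687332 (plus strand), and 8.75% of that span is shared with DINOL, so fragments there were not counted. Levels of CDKN1A in the TAp63 line were 6.78, 6.14 and 5.41 CPM at day 0, 9.81, 10.3 and 8.001 at day 1, 12.6, 9.48 and 7.83 at day 3, and lastly 9.43, 8.63 and 8.15 at day 6. CDKN1A in the ΔNp63 line stood at 8.56, 7.21 and 4.66 CPM at day 0, 10.6, 9.602 and 23.9 at day 1, 9.78, 12.2 and 9.53 at day 3, and lastly 9.43, 11.4 and 9.48 at day 6. Every induced library lay above every uninduced one of its line, and the library that stood apart, at 23.9 CPM, was the highest of all 24. In the paired fit the log2 change was 0.63 (SE 0.152) at TAp63 day 1 (edgeR, adjusted p = 0.0402). The log2 change at day 3 was 0.69 (SE 0.152) under TAp63 and 0.65 (SE 0.141) under ΔNp63 (edgeR, adjusted p = 0.00557 and 0.00145). At day 6 it was 0.52 (SE 0.152) and 0.58 (SE 0.15), of which the second passed (edgeR, adjusted p = 0.0567 and 0.00879). With all libraries it passed nowhere with edgeR; at day 1 of ΔNp63 the log2 change of 0.96 (edgeR, adjusted p = 0.152) became 0.48 without the library that stood apart and with the block (edgeR, adjusted p = 0.165). Of the calls in the paired fit, only that of ΔNp63 day 3 held with each further library left out.

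Each of the other cell cycle brakes was called in at most 1 comparison. SFN, which encodes 14-3-3σ and holds mitotic kinases in the cytoplasm, rose in the paired fit at ΔNp63 day 6 alone, by 0.37 (SE 0.117; edgeR, adjusted p = 0.0344), a call that held in 1 of 6 fits with a further library left out. Levels of SFN in the TAp63 line were 34.7, 22.4 and 19.2 CPM at day 0, 35.04, 22.8 and 14.7 at day 1, 33.9, 24.5 and 22.7 at day 3, and lastly 32.7, 26.7 and 21.5 at day 6. SFN in the ΔNp63 line stood at 32.7, 24.1 and 18.5 CPM at day 0, 30.3, 26.99 and 4.66 at day 1, 38.8, 23.9 and 23.1 at day 3, and lastly 41.9, 26.2 and 29.9 at day 6. Replicate 1 was the highest of the 3 in all 8 groups, and the days overlapped. GADD45A, a stress gene of growth arrest and DNA repair, fell at ΔNp63 day 3 in the paired fit by 0.40 (SE 0.136; edgeR, adjusted p = 0.0322), a call that held in 1 of 6 such fits. Levels of GADD45A in the TAp63 line were 26.96, 16.1 and 17.2 CPM at day 0, 25.5, 26.1 and 16 at day 1, 28.6, 15.7 and 17.1 at day 3, and lastly 26.6, 19.95 and 18.99 at day 6. GADD45A in the ΔNp63 line stood at 29.7, 17.8 and 15.95 CPM at day 0, 22.6, 15.1 and 129 at day 1, 19.7, 13.95 and 13.7 at day 3, and lastly 18.8, 13.2 and 16.9 at day 6. The levels of days 3 and 6 overlapped those of day 0 in both lines. GADD45B, the cyclins G1 and G2 (CCNG1, CCNG2), BTG2, an antiproliferative regulator of mRNA decay, and the kinase PLK3 were called in no comparison of either fit.

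**Figure D3:**
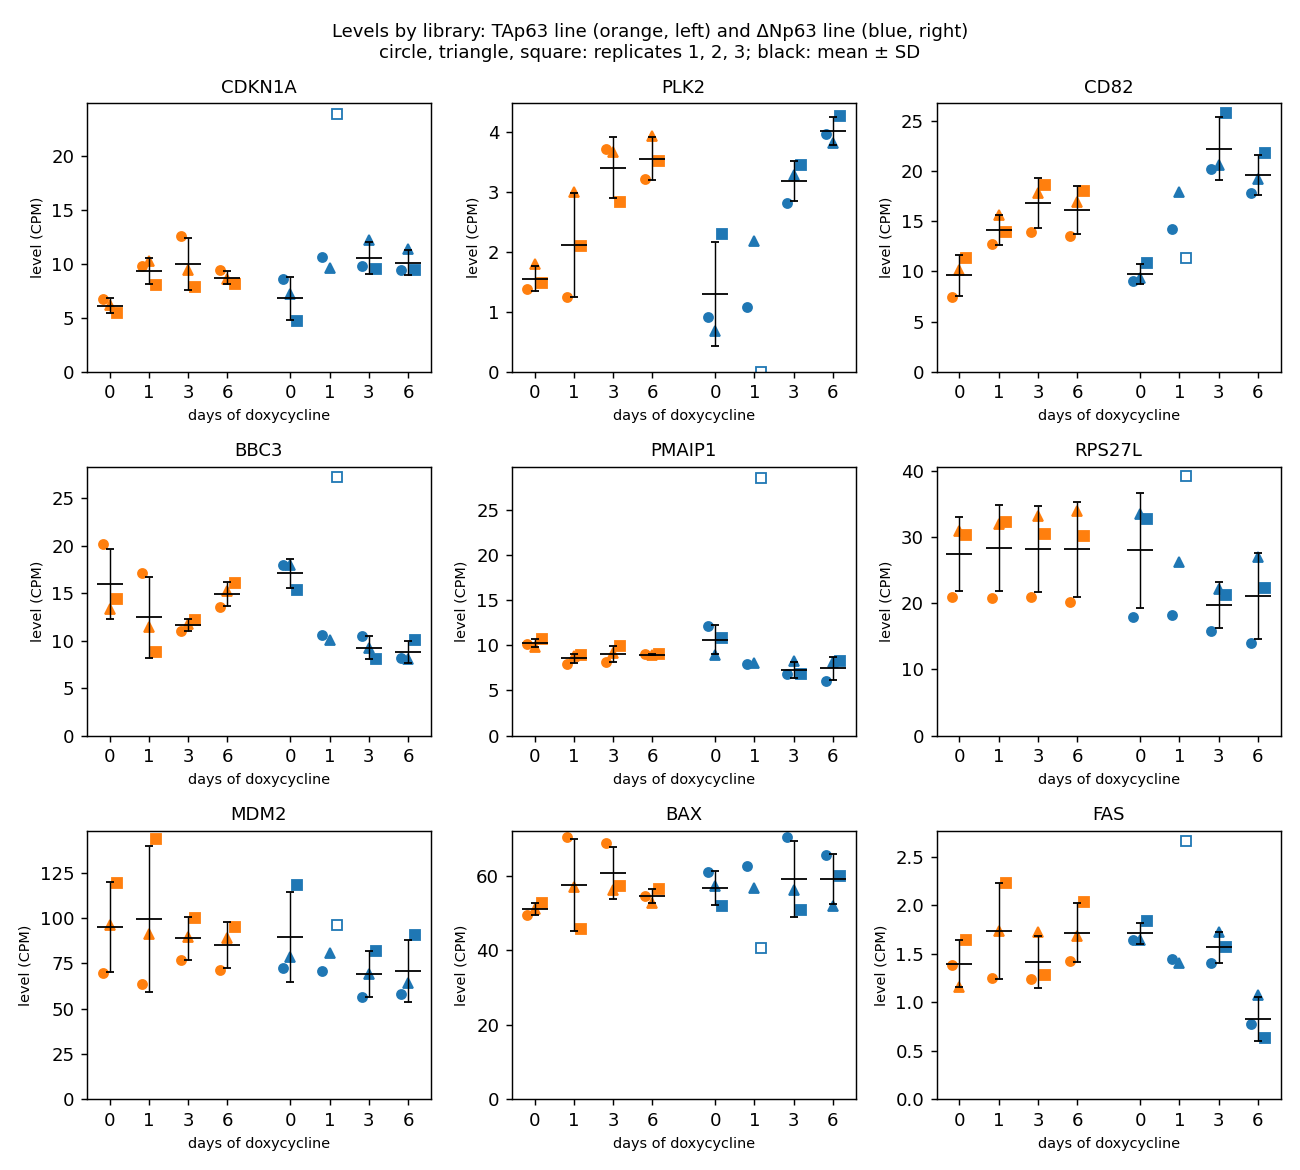
Level in CPM of 9 members by line (TAp63 orange, ΔNp63 blue) and days of doxycycline, 1 point per library, with black bars for mean ± SD of 3 libraries (none drawn for ΔNp63 day 1, where the open square is the library that stands apart). CDKN1A, PLK2 and CD82 are higher at days 3 and 6 than at day 0 in both lines, BBC3 and PMAIP1 are lower in the ΔNp63 line, and BAX overlaps between all days in the ΔNp63 line.

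Among the genes of mitochondrial apoptosis, none rose in either line in either fit, and 4 of the 7 tested fell at day 3 and 3 at day 6 under ΔNp63 in the paired fit, where 11.3% and 5.94% of all genes fell. BBC3, which encodes PUMA, a BH3-only protein that frees BAX to permeabilise mitochondria, fell most. It spans chr19:47220824-47232667 (minus strand), of which 0.675% is shared with the microRNA genes MIR3190 and MIR3191. Levels of BBC3 in the TAp63 line were 20.2, 13.3 and 14.3 CPM at day 0, 17.1, 11.4 and 8.79 at day 1, 10.97, 11.8 and 12.2 at day 3, and lastly 13.5, 15.2 and 16.02 at day 6. BBC3 in the ΔNp63 line stood at 17.95, 18 and 15.4 CPM at day 0, 10.6, 10.1 and 27.3 at day 1, 10.5, 9.26 and 8.03 at day 3, and lastly 8.18, 8.05 and 10.1 at day 6. In the ΔNp63 line the 6 libraries of days 3 and 6 lay at 8.03 to 10.5 CPM, below the 3 of day 0; the TAp63 libraries of day 6 lay within the range of their day 0. The log2 change under ΔNp63 was -0.88 (SE 0.27) and -0.97 (SE 0.276) at days 3 and 6 with all libraries (edgeR, adjusted p = 0.109 and 0.0788). In the paired fit it was -0.77 (SE 0.171) at day 1, -0.89 (SE 0.152) at day 3 and -1.005 (SE 0.164) at day 6 (edgeR, adjusted p = 0.0219, 0.000106 and 6.9e-05), and the block alone, with all libraries, also passed at days 3 and 6 (edgeR, adjusted p = 0.0433 and 0.0394). The calls at days 3 and 6 held with each further library left out, and that of day 1 in 1 of 5 such fits. The TAp63 libraries of day 3 also lay below day 0. Under TAp63 the change was -0.40 (SE 0.158) at day 3 and -0.05 (SE 0.151) at day 6, neither of which passed (edgeR, adjusted p = 0.152 and 0.914).

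PMAIP1, which encodes NOXA, a BH3-only protein that neutralises MCL1, fell under ΔNp63 in the paired fit by 0.53 (SE 0.13) at day 3 and 0.51 (SE 0.139) at day 6 (edgeR, adjusted p = 0.00412 and 0.0121). Levels of PMAIP1 in the TAp63 line were 10.2, 9.86 and 10.7 CPM at day 0, 7.94, 8.79 and 8.92 at day 1, 8.17, 9.12 and 9.89 at day 3, and lastly 8.997, 8.88 and 8.98 at day 6. PMAIP1 in the ΔNp63 line stood at 12.1, 8.92 and 10.8 CPM at day 0, 7.89, 8.02 and 28.6 at day 1, 6.79, 8.31 and 6.77 at day 3, and lastly 6, 8.13 and 8.22 at day 6. The ΔNp63 groups of days 3 and 6 lay below day 0, and the library that stood apart was above all others. Without replicate 1 of ΔNp63 day 0 the paired fit no longer called it at either day, and without replicate 1 of ΔNp63 day 6 it did not call it at day 6. AEN, a nuclease of apoptotic DNA cleavage, fell by 0.48 (SE 0.0992) at day 3 and 0.33 (SE 0.102) at day 6 under ΔNp63 in the paired fit (edgeR, adjusted p = 0.000895 and 0.0282). Levels of AEN in the TAp63 line were 39.3, 75.4 and 60.03 CPM at day 0, 43.5, 69.6 and 53.8 at day 1, 47.1, 60.2 and 62.8 at day 3, and lastly 46.98, 63.04 and 64.1 at day 6. AEN in the ΔNp63 line stood at 44.04, 71.9 and 59.99 CPM at day 0, 32.1, 55.6 and 47.2 at day 1, 37.6, 46.5 and 40.3 at day 3, and lastly 33.3, 57.4 and 50.2 at day 6. The day 3 call held with each further library left out and the day 6 call in 1 of 6 such fits, and the unpaired groups overlapped. TRIAP1, a carrier of mitochondrial lipid that restrains apoptosis, fell at ΔNp63 day 3 by 0.26 (SE 0.0868; edgeR, adjusted p = 0.0304), held in 2 of 6 such fits. Levels of TRIAP1 in the TAp63 line were 39.3, 52.6 and 43.8 CPM at day 0, 38.1, 46.8 and 50.8 at day 1, 40.97, 46.6 and 44.2 at day 3, and lastly 36.1, 48.97 and 41.7 at day 6. TRIAP1 in the ΔNp63 line stood at 37.95, 53.2 and 47.5 CPM at day 0, 31.5, 43.9 and 47.2 at day 1, 35.03, 41.9 and 38.4 at day 3, and lastly 37.6, 54.5 and 38.1 at day 6. Its groups overlapped at every day.

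BAX, the pore-forming effector of mitochondrial apoptosis, passed the test in no comparison. Levels of BAX in the TAp63 line were 49.5, 51.01 and 52.7 CPM at day 0, 70.3, 57.1 and 45.6 at day 1, 68.8, 56.2 and 57.3 at day 3, and lastly 54.5, 52.7 and 56.6 at day 6. BAX in the ΔNp63 line stood at 61.1, 57.4 and 51.9 CPM at day 0, 62.7, 56.8 and 40.6 at day 1, 70.5, 56.3 and 50.7 at day 3, and lastly 65.5, 51.99 and 60.04 at day 6. The TAp63 libraries of days 3 and 6 lay above those of day 0, and in the ΔNp63 line all days overlapped. The paired fit gave BAX a log2 change of 0.22 (95% interval 0.01 to 0.44; edgeR, adjusted p = 0.221) at TAp63 day 3 and 0.05 (-0.16 to 0.26) at ΔNp63 day 3. APAF1, the scaffold of the apoptosome, and BCL2L1, which encodes the survival protein BCL-XL, passed in no comparison of either fit. The antisense gene ABALON covers 3.2% of BCL2L1, and reads of the 2 strands could not be told apart.

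No death receptor was called higher in either fit. FAS, the receptor of FAS ligand, stood near 1 to 2 CPM. Levels of FAS in the TAp63 line were 1.39, 1.16 and 1.65 CPM at day 0, 1.25, 1.73 and 2.23 at day 1, 1.24, 1.72 and 1.28 at day 3, and lastly 1.43, 1.69 and 2.04 at day 6. FAS in the ΔNp63 line stood at 1.65, 1.65 and 1.84 CPM at day 0, 1.45, 1.404 and 2.66 at day 1, 1.41, 1.73 and 1.57 at day 3, and lastly 0.779, 1.08 and 0.632 at day 6. The 3 libraries of ΔNp63 day 6 were the 3 lowest of all 24, with 29 counts between them, and the other groups overlapped. Its log2 change at ΔNp63 day 6 was -0.998 (SE 0.303) with all libraries and -0.93 (SE 0.279) in the paired fit, of which the second passed (edgeR, adjusted p = 0.11 and 0.0234), and that call held in 2 of 6 fits with a further library left out. ACTA2 and FAS-AS1 cover 8.19% of FAS. TNFRSF10A and TNFRSF10B encode the death-signalling receptors of the ligand TRAIL. TNFRSF10A fell at ΔNp63 day 3 by 0.26 (SE 0.0897) and TNFRSF10B at ΔNp63 day 6 by 0.31 (SE 0.0855) in the paired fit (edgeR, adjusted p = 0.0361 and 0.0126), calls that held in 2 of 6 and 3 of 6 such fits. Levels of TNFRSF10A in the TAp63 line were 24.8, 27.2 and 32.7 CPM at day 0, 25.9, 28.3 and 34.4 at day 1, 26.1, 24.3 and 33.3 at day 3, and lastly 25.4, 26.7 and 29.5 at day 6. TNFRSF10A in the ΔNp63 line stood at 25.9, 27.99 and 32.4 CPM at day 0, 26.04, 25.6 and 51.9 at day 1, 25.9, 21.7 and 24.4 at day 3, and lastly 24.8, 23.01 and 27.96 at day 6. The 3 libraries of ΔNp63 day 3 lay below those of day 0. Levels of TNFRSF10B in the TAp63 line were 41.3, 43.3 and 42.7 CPM at day 0, 40.3, 45.2 and 40.5 at day 1, 34.8, 45.9 and 42.1 at day 3, and lastly 39.8, 47.7 and 45.01 at day 6. TNFRSF10B in the ΔNp63 line stood at 37.2, 48.7 and 43.97 CPM at day 0, 41.1, 47.7 and 74.5 at day 1, 35.03, 42 and 43.7 at day 3, and lastly 28.8, 36.1 and 40.9 at day 6. Its ΔNp63 groups of days 0 and 6 overlapped. EDA2R was too sparse to test.

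Of the 5 genes that limit or feed back on p53, 3 fell at day 3 and 2 at day 6 under ΔNp63 in the paired fit, where 11.3% and 5.94% of all genes fell, and none of the 5 was called under TAp63 in either fit. RPS27L, a ribosomal protein paralogue that binds MDM2, spans chr15:63148249-63157477 (minus strand). Levels of RPS27L in the TAp63 line were 20.95, 30.9 and 30.3 CPM at day 0, 20.8, 31.9 and 32.3 at day 1, 20.9, 33.2 and 30.4 at day 3, and lastly 20.1, 33.96 and 30.2 at day 6. RPS27L in the ΔNp63 line stood at 17.95, 33.4 and 32.6 CPM at day 0, 18.2, 26.1 and 39.2 at day 1, 15.8, 22.2 and 21.3 at day 3, and lastly 14.03, 26.9 and 22.3 at day 6. Replicate 1 was the lowest of the 3 in every group, and the days overlapped, while within each number days 3 and 6 of ΔNp63 lay below day 0. The paired fit gave a log2 change of -0.49 (SE 0.0902) at day 3 and -0.40 (SE 0.094) at day 6 (edgeR, adjusted p = 3e-04 and 0.00351), held with each further library left out, and 0.05 (95% interval -0.15 to 0.25) and 0.04 (-0.16 to 0.23) under TAp63. With all libraries and no block the ΔNp63 change at day 3 was -0.51 (SE 0.297; edgeR, adjusted p = 0.57).

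MDM2, the ubiquitin ligase that degrades p53 and is itself a p53 target, was called higher in neither line. Levels of MDM2 in the TAp63 line were 69.9, 96.4 and 119 CPM at day 0, 63.9, 91.4 and 143 at day 1, 76.7, 89.4 and 100.3 at day 3, and lastly 71.3, 88.9 and 95.3 at day 6. MDM2 in the ΔNp63 line stood at 72.4, 78.5 and 118 CPM at day 0, 70.8, 80.5 and 96.4 at day 1, 56.6, 69.1 and 81.7 at day 3, and lastly 58.2, 64 and 90.5 at day 6. Replicate 3 was the highest and replicate 1 the lowest of the 3 in all 8 groups. MDM2 fell in the paired fit by 0.36 (SE 0.102) at day 3 and 0.33 (SE 0.104) at day 6 under ΔNp63 (edgeR, adjusted p = 0.011 and 0.0294), calls that held in 4 of 6 and 1 of 6 fits with a further library left out. Under TAp63 its change was -0.08 (95% interval -0.30 to 0.14) and -0.14 (-0.36 to 0.08). FBXO22, an F-box protein that marks methylated p53 for degradation, fell at ΔNp63 day 3 by 0.30 (SE 0.0859; edgeR, adjusted p = 0.0108), held in 4 of 6 such fits. Levels of FBXO22 in the TAp63 line were 61.3, 58.5 and 52.4 CPM at day 0, 57.9, 55.8 and 55.9 at day 1, 70.7, 51.8 and 47.8 at day 3, and lastly 57.5, 55.3 and 52.1 at day 6. FBXO22 in the ΔNp63 line stood at 66.7, 54.3 and 54.8 CPM at day 0, 59.9, 53.9 and 83.8 at day 1, 48.5, 48.4 and 44.97 at day 3, and lastly 54, 56.7 and 54.98 at day 6. The 3 libraries of ΔNp63 day 3 lay below those of day 0. ZMAT3, an RNA-binding zinc finger protein, and FBXW7, an F-box protein that targets cyclin E and MYC, passed nowhere, although all 3 FBXW7 libraries of TAp63 days 3 and 6 lay below those of day 0, with a log2 change of -0.27 (SE 0.0932) at day 3 in the paired fit (edgeR, adjusted p = 0.105).

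Of the DNA repair and metabolic members, 2 were called, both at ΔNp63 day 3 in the paired fit. POLK, a translesion DNA polymerase, rose by 0.38 (SE 0.135) and SESN1, a sestrin that restrains mTORC1, by 0.25 (SE 0.0903) (edgeR, adjusted p = 0.0447 and 0.0438), calls that held in 2 of 6 and 1 of 6 fits with a further library left out. Levels of POLK in the TAp63 line were 15.6, 13.6 and 17.1 CPM at day 0, 17.1, 16.1 and 20.99 at day 1, 15.8, 14.97 and 14.3 at day 3, and lastly 17.1, 11.5 and 15.4 at day 6. POLK in the ΔNp63 line stood at 16.9, 11.9 and 13.7 CPM at day 0, 16.6, 15.9 and 31.9 at day 1, 16.1, 19.1 and 19.3 at day 3, and lastly 19.9, 18.1 and 13.4 at day 6. The POLK libraries of ΔNp63 day 3 overlapped day 0. Levels of SESN1 in the TAp63 line were 24.03, 24.9 and 24.95 CPM at day 0, 20.2, 22.1 and 27.3 at day 1, 21.7, 25.4 and 21.7 at day 3, and lastly 21.7, 25.3 and 21.7 at day 6. SESN1 in the ΔNp63 line stood at 22.5, 23.3 and 23.9 CPM at day 0, 24.96, 25.2 and 18.6 at day 1, 24.5, 29.5 and 29.1 at day 3, and lastly 24.5, 27.04 and 25.9 at day 6. Those of SESN1 lay above day 0 at days 3 and 6 in the ΔNp63 line. DDB2 and XPC, which recognise ultraviolet lesions, RRM2B, a ribonucleotide reductase subunit, TIGAR, a fructose bisphosphatase, and FDXR, the mitochondrial ferredoxin reductase, were called in no comparison. DDB2, the member with a full p53 site beside its start, had log2 changes of -0.10 (95% interval -0.26 to 0.06) at TAp63 day 3 and 0.01 (-0.14 to 0.17) at ΔNp63 day 3. Of the other members with a half-site window, PLK2 was called higher in both lines and SESN1 higher under ΔNp63 alone. AEN, RPS27L and FAS were called lower under ΔNp63, and FDXR was not called. DDB2, FAS, FDXR and SESN1 also have windows at other starts that hold no half-site. IGFBP3 lay between 0 and 1.02 CPM, and its changes had standard errors of 0.637 to 0.803 log2 units at days 3 and 6. The 15 other members called in no comparison had log2 changes between -0.27 and 0.48 under TAp63 and between -0.42 and 0.27 under ΔNp63 at days 3 and 6 of the paired fit.

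The direct comparison of the 2 lines asked whether a member changed more under TAp63 than under ΔNp63, each against its own day 0. With all libraries edgeR called 0 of 32 members at day 1, 3 or 6, with 0, 0 and 2 at an unadjusted p under 0.05 (BBC3 and FAS at day 6), DESeq2 called 0 at each day, and edgeR called 0%, 0.0448% and 0.0831% of all genes (at days 3 and 6, 0.00639% and 0.0256% larger under TAp63 and 0.0384% and 0.0575% smaller). For CDKN1A the response under TAp63 minus that under ΔNp63 was 0.09 (95% interval -0.71 to 0.88) at day 3 and -0.05 (-0.85 to 0.75) at day 6. For PLK2 it was -0.17 (-1.42 to 1.08) and -0.45 (-1.70 to 0.81), and for CD82 -0.40 (-0.95 to 0.14) and -0.28 (-0.82 to 0.26). The paired fit narrowed these intervals to -0.41 to 0.49 and -0.52 to 0.40 for CDKN1A, -1.06 to 0.75 and -1.36 to 0.47 for PLK2, and -0.73 to -0.08 and -0.62 to 0.04 for CD82, none of which passed the adjusted test. All 3 members that rose at TAp63 day 3, and both that rose at day 6, were also called higher under ΔNp63 at that day, and 1 of the 3 at day 3 (CDKN1A) and 0 of the 2 at day 6 had the larger change under TAp63. Of the 2 that rose at TAp63 day 1, CD82 was also called higher under ΔNp63. The other, CDKN1A, was not, and it had the larger change under TAp63. Of all 33 members of the paired fit, called or not, 23, 19 and 20 had a log2 change under TAp63 above that under ΔNp63 (days 1, 3 and 6). Their median difference between the lines was 0.107, 0.061 and 0.028, against 0.007, 0.016 and -0.008 for all genes. These counts include members that fell less under TAp63, and the matching share of all genes was not counted.

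In the paired fit 1 of 33 members was called at day 3 and 1 at day 6 for a difference between the lines, both higher under TAp63, against 0.304% and 0.824% of all genes in that direction, and 0 at day 1, where 4 had an unadjusted p under 0.05 and 0.0127% of all genes were called in either direction. RPS27L differed at day 3 by 0.53 (SE 0.129; edgeR, adjusted p = 0.0392) and BBC3 at day 6 by 0.95 (SE 0.224; edgeR, adjusted p = 0.0196). In both cases the level fell under ΔNp63 and the change under TAp63 did not pass, so neither difference was a rise under TAp63. The first held in 3 and the second in 5 of 12 fits with a further library left out, and neither passed with all libraries, at 0.54 (SE 0.42) and 0.89 (SE 0.385) (edgeR, adjusted p = 1 for both). FAS differed by 1.26 (SE 0.369) at day 6 and AEN by 0.44 (SE 0.141) at day 3 in the same direction, without passing (edgeR, adjusted p = 0.0847 and 0.156). Across the members, the 2 lines' log2 changes with all libraries had a Pearson correlation of 0.74 at day 3 and 0.69 at day 6 (32 genes), against 0.53 and 0.44 over all 15642 genes, and a Spearman correlation of 0.41 and 0.39, against 0.41 and 0.37. In the paired fit, with IGFBP3 added, the Pearson correlation was 0.70 and 0.40, against 0.54 and 0.43 over all genes, and the Spearman correlation 0.31 and 0.25, against 0.44 and 0.37. At day 1 the Pearson and Spearman correlations with all libraries were 0.55 and 0.48, against 0.21 and 0.27 over all genes. The paired fit gave 0.87 and 0.59 at day 1, against 0.42 and 0.35. IGFBP3 had the lowest change of the members there in both lines, -1.13 under TAp63 and -1.90 under ΔNp63. It rested on 4 counts in each day 1 group, and a Pearson correlation leans on such an extreme gene. The paired-fit correlations were not computed without it. These are descriptions across genes, which share libraries and are not independent replicates.

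**Figure D4:**
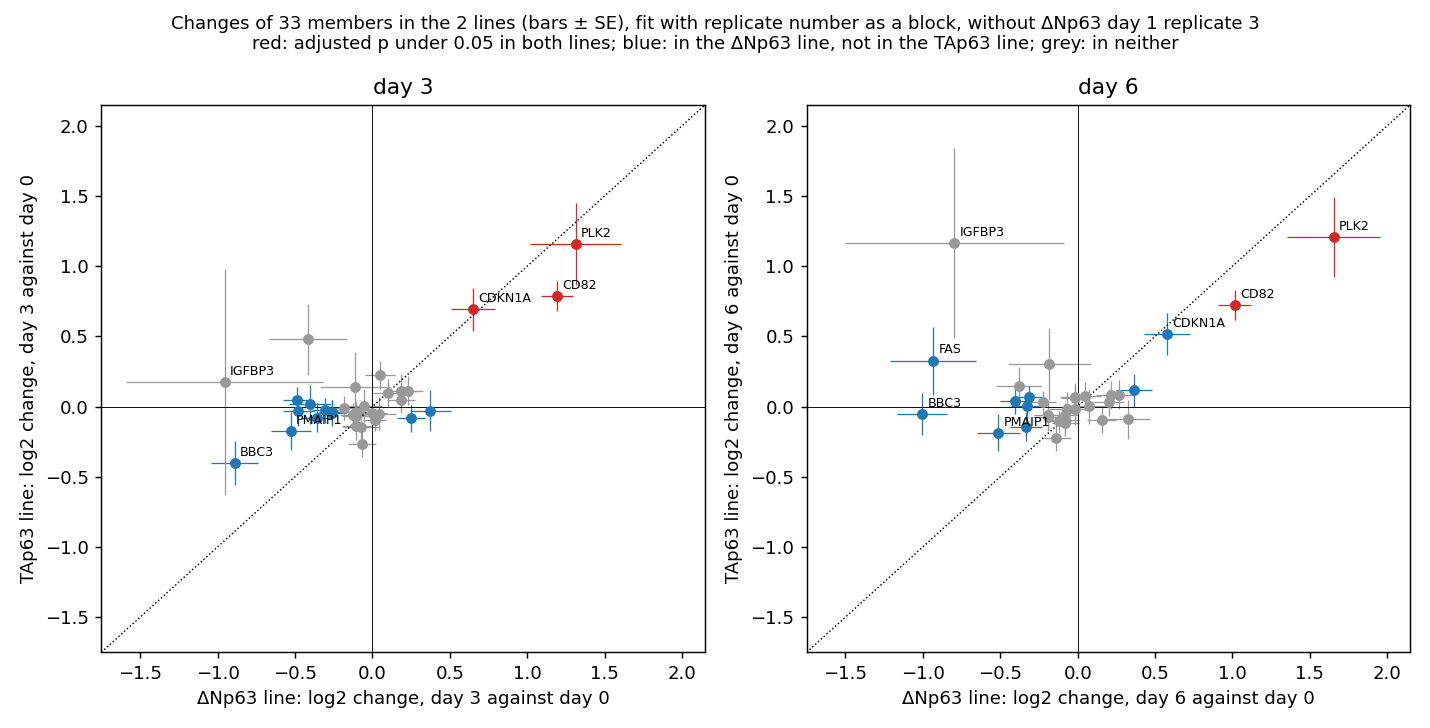
Log2 change against the line's own day 0 in the TAp63 line (vertical) and the ΔNp63 line (horizontal) for 33 members at days 3 and 6, from the fit with replicate number as a block and without the library that stood apart; bars are ± SE and the dotted line marks equal change. PLK2 and CD82 lie in the upper right at both days, BBC3 lies to the left with -1.005 under ΔNp63 and -0.05 under TAp63 at day 6, and most members cluster around 0.

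Genes around the pathway were read from 3 further lists. None of the p53 family members and regulators (29 of 30 tested), further p53 targets (54 of 60) or other apoptosis genes (21 of 25) was called at days 3 or 6 with all libraries by edgeR in either line or between them, where at most 6 members of a list had an unadjusted p under 0.05, and DESeq2 called at most 1 of a list. MDM4, the partner of MDM2, was called in no comparison. Of the 29 regulators, 1 rose and 7 fell at ΔNp63 day 3 in the paired fit, where 12.2% of all genes rose and 11.3% fell. At day 6, 1 rose and 3 fell, where 8.14% of all genes rose and 5.94% fell. PPP1R13B, which encodes ASPP1, a cofactor that steers p53 to apoptotic targets, was the one that rose, by 0.56 and 0.59 (edgeR, adjusted p = 1.88e-06 and 9.97e-07). Its levels were 66.0, 66.6 and 65.8 CPM at ΔNp63 day 0 and 98.7, 91.5 and 111 CPM at day 6, against 73.8, 66.8 and 69.0 CPM and then 77.0, 71.2 and 77.6 CPM in the TAp63 line. The responses of PPP1R13B differed between the lines by -0.48 at both days (edgeR, adjusted p = 0.0158 and 0.00886). DYRK2, a kinase that phosphorylates p53, fell in both lines at both days, by 0.44 and 0.40 under TAp63 and 0.37 and 0.39 under ΔNp63 (edgeR, adjusted p = 0.00255, 0.00587, 0.00221 and 0.00277), and TP73 fell at ΔNp63 day 6 by 0.35 (edgeR, adjusted p = 0.0129).

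Of the 54 further p53 targets, 6 rose and 9 fell at ΔNp63 day 3 and 4 rose and 6 fell at day 6 in the paired fit. The counts that rose are near the shares of all genes, of which 12.2% rose and 11.3% fell at day 3 and 8.14% rose and 5.94% fell at day 6. Under TAp63, 1 rose and none fell at each of these days, where 3.2% and 2.95% of all genes rose. That one was FUCA1, a lysosomal fucosidase, which rose by 0.55 and 0.59 under TAp63 and by 0.60 and 0.67 under ΔNp63 (edgeR, adjusted p = 0.000606, 0.000242, 4.03e-05 and 1.21e-05). POLH, a translesion polymerase, fell under ΔNp63 by 0.53 and 0.41 (edgeR, adjusted p = 4.74e-05 and 0.00134), from 38.3, 38.4 and 47.5 CPM at day 0 to 25.6, 24.99 and 36.0 CPM at day 3. Of the other apoptosis genes none rose at day 3 or 6, and 2 fell at each day under TAp63, 4 at ΔNp63 day 3 and 3 at ΔNp63 day 6, of 21 tested. Of all genes, 1.37% and 0.646% fell under TAp63 and 11.3% and 5.94% under ΔNp63 at these days. BCL2, the founding survival protein, fell in both lines, by 0.52 and 0.56 under TAp63 and 0.34 and 0.43 under ΔNp63 (edgeR, adjusted p = 0.00232, 0.00107, 0.0167 and 0.00573). HRK, a BH3-only protein, fell by 0.46 and 0.32 and by 0.51 and 0.63 (edgeR, adjusted p = 0.0026, 0.0498, 0.000157 and 2.52e-05). BIK, another BH3-only protein, fell under ΔNp63 by 0.35 and 0.44 (edgeR, adjusted p = 0.0149 and 0.00544). The median log2 change of each list lay between -0.09 and 0.04 in both lines at days 3 and 6 with all libraries.

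Some members kept 1 order of the replicate numbers in every group. Replicate 1 was the lowest of its 3 libraries in all 8 groups for 8 of the 32 members (AEN, APAF1, CCNG1, MDM2, RPS27L, TNFRSF10B, TRIAP1 and ZMAT3), and 7% of all tested genes showed the same order. It was the highest in all 8 groups for SFN, as for 6.66% of all genes. The same replicate held the highest summed erythroid level in 7 of 8 groups. The part of these differences in the members' levels was not tested.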

How the data were processed

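RNA from 24 TYUC-1 cultures was sequenced, and the authors deposited 1 table of counts per gene. Per the submitters' processing notes, HISAT2 2.1.0, featureCounts 1.6.1, DESeq2 and hg38 were used; per the file header, the counts were made with featureCounts 2.0.0, in read pairs, over whole RefSeq gene spans and without strand, so intronic reads are included and fragments over 2 genes are lost.

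From these counts edgeR 4.0.16 (R 4.3.3) fitted a quasi-likelihood model over all genes, with filterByExpr, TMM scaling and 1 mean for each of 8 groups (16 residual degrees of freedom, 13 in the paired fit), and adjusted p by Benjamini-Hochberg over all genes tested, with a threshold of 0.05. CPM are the counts scaled to the TMM-adjusted library total. Code was tested on simulated data. Alternatives were DESeq2 1.42.0, its size factors in edgeR, no filter, fewer groups, leaving out libraries and the replicate block.

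Replicate numbers come from the labels; deviations of same-numbered libraries correlated at 0.23 to 0.69 in every comparison except ΔNp63 day 1 (-0.06, 0.24 and -0.29), and 23 of 23 other libraries correlated best with their own number. Values in every library are given for members called with all libraries, without ΔNp63 day 1 replicate 3 or in the paired fit, and for CDKN1A, MDM2, BAX, BBC3 and TP63. Members and lists were chosen with earlier results of these data known. Some genes of the marker and pathway lists are not reported here.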

Additional observations from a re-analysis of the deposited data

Results flagged for a closer look

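The responses of 2 members differed between the lines by a test of the difference itself, in the edgeR fit with the replicate block and without replicate 3 of ΔNp63 day 1. For RPS27L at day 3 the log2 change under TAp63 minus that under ΔNp63 was 0.53 (95% interval 0.25 to 0.81). For BBC3 at day 6 it was 0.95 (95% interval 0.47 to 1.43). Both fell under ΔNp63, and neither difference passed with all libraries and no block.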

How the results depend on the processing

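Among the named genes' calls, none turned direction, but values that were not called did: PMAIP1 at ΔNp63 day 1 was 0.24 with all libraries and -0.41 without replicate 3 of that group. The members' median there went from 0.01 to -0.06, and other medians near 0 also changed sign. At ΔNp63 day 3 the balance of calls turned from 1 higher and 0 lower to 5 and 9 in the paired fit. Members called with all libraries were 0 at TAp63 days 1, 3 and 6 and ΔNp63 day 1, and 1 (CD82) at ΔNp63 days 3 and 6. DESeq2 called 1 higher at TAp63 day 3, 1 at TAp63 day 6, 2 at ΔNp63 day 1, and 2 higher and 1 lower at ΔNp63 day 6; its size factors in edgeR gave 2 higher at ΔNp63 day 6. With only the groups compared, 1 was lower at ΔNp63 day 3 and 1 at day 6. The replicate block gave 1 higher at TAp63 day 3, 1 at TAp63 day 6, 1 at ΔNp63 day 1, 3 lower at ΔNp63 day 3, and 2 higher and 1 lower at ΔNp63 day 6. Without replicate 3 of ΔNp63 day 1, 1 was higher at TAp63 day 3 and 1 at day 6, 2 higher and 2 lower at ΔNp63 day 3, and 2 higher and 3 lower at ΔNp63 day 6. Both together, the paired fit with pairing by number, gave 2, 3 and 2 higher at TAp63 days 1, 3 and 6, 1 higher and 1 lower, 5 and 9, and 4 and 7 at ΔNp63 days 1, 3 and 6, and 1 between the lines at days 3 and 6. Leaving out 1 library at a time gave 0 to 3 higher at ΔNp63 day 1 (3 without its replicate 2), and 1 to 2 higher at ΔNp63 days 3 and 6 (2 without replicate 3 of day 0). The causes were not tested. Leaving out further libraries from the paired fit was chosen after seeing the data. PLK2, FAS and IGFBP3 rest on few counts, which limits their precision.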
